A study of Homo sapiens with 8 samples.

Results

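The centromere of human chromosome 7 appears in these data as 4 separate blocks of ChIRP peaks. ChIRP pulls an RNA out of chromatin with biotinylated antisense probes, and the genomic DNA that comes with it is sequenced; here the probes were directed at α-satellite RNA. A peak is a stretch of the reference genome, build hs1, where the recovered DNA exceeded the local background. All peaks that start between positions 57000000 and 64999999 of chromosome 7 were taken, and peaks starting below 60300000 were kept apart from those starting at or above it. This gave 2026 of the 32035 peaks listed for asynchronous cells (6.32%) and 1874 of the 33553 listed for mitotic cells (5.59%). The rule itself uses position alone, but the range and its boundary were set with earlier results of these data known.

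The cells were RPE1, an immortalised human retinal pigment epithelial line, of wild-type genotype in every library. One set was grown without synchronisation and the other is labelled Meta, for mitotic cells per the series' design text. The labels give neither a way of arrest nor a time. Each condition had 1 library of input DNA, 1 library labelled Scr, and 2 α-satellite pull-downs with separate probe sets, Odd and Even, for 8 libraries in all. The deposited peak lists rest on the merged Odd and Even libraries, 1 list per condition, so there is no replicate error and nothing was tested between conditions. Intervals below are exact 95% intervals that treat neighbouring peaks as independent and cover counting error only. Input and Scr libraries were not analysed here, sequencing depth is unknown from the lists, and the probes may also have paired with α-satellite DNA directly; RNA-held and probe-held DNA cannot be told apart in these lists.

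α-Satellite is the tandem repeat on which human kinetochores assemble. Its basic unit, a monomer of about 170 bp, is arranged into longer units called higher-order repeats, and copies of such a unit follow one another with very little sequence divergence. Chromosome 7 is known for carrying more than one such array: D7Z1, the larger, is the usual site of the kinetochore, and D7Z2 is a smaller array with a longer higher-order repeat. α-Satellite without higher-order structure flanks many human arrays. No repeat annotation of build hs1 was used here, so blocks are given by position and order, and which block lies on which named array was not tested.

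The peaks of the 2 lists were pooled and joined across gaps of up to 100 kb, and a group with 20 or more peaks counted as a block. The first block ran from 58124376 to 58276645 (152 kb), the second from 59440325 to 59834498 (394 kb), and the third from 60044377 to 60242547 (198 kb). All 3 lie on the short-arm side of the fourth, called the main block here, which ran from 60410501 to 63850245 (3.44 Mb). With gaps of up to 100 kb joined, the short-arm side held 3 blocks, so a description as a major and a minor array leaves out part of the pattern. Joining over 200 kb put the third block together with the main block and left 3 blocks in all. Between the first and the second block lay 1164 kb without a listed peak, between the second and the third 210 kb, and between the third and the main block 168 kb. The 4 blocks held 2025 asynchronous and 1871 mitotic peaks. The remaining 1 asynchronous and 3 mitotic peaks stood alone on the long-arm side, 106 to 1102 kb beyond the main block. They were 222 to 294 bp wide with a fold enrichment of 3.73 to 3.82, and none met a peak of the other list.

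**Figure D1:**
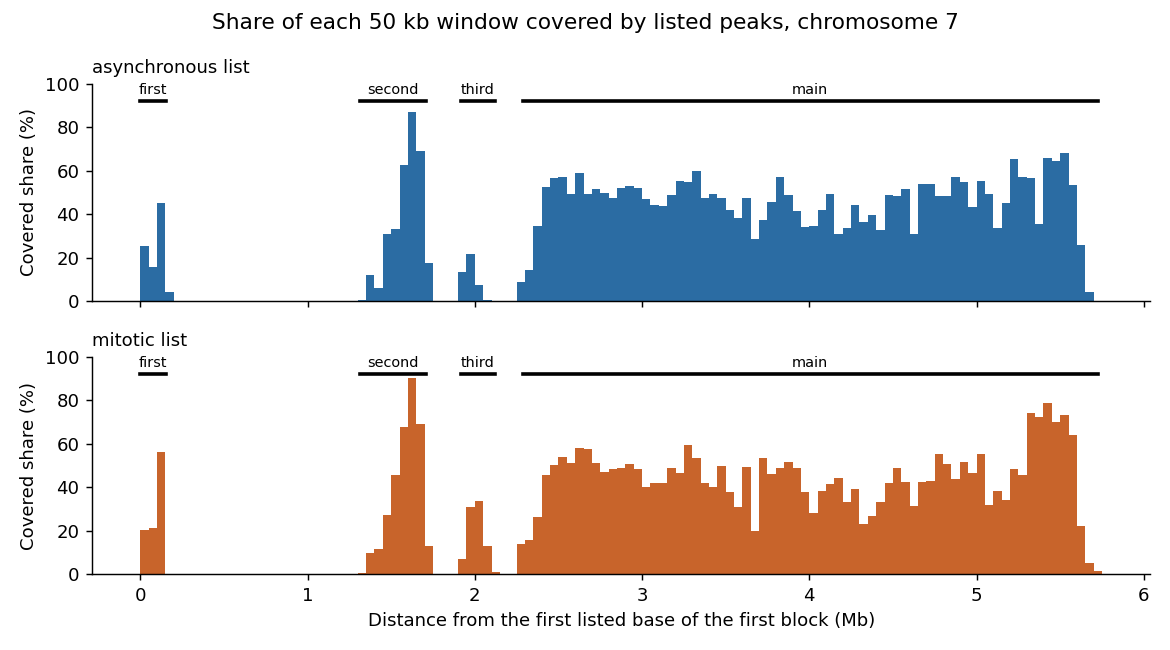
Share of each 50 kb window covered by listed peaks (%, vertical axis) against the distance from the first listed base of the first block (Mb, horizontal axis), for the asynchronous list (upper panel) and the mitotic list (lower panel); black lines mark the 4 blocks. The highest window lies in the second block in both lists (87.1% and 90.2%), above the highest of the main block (68.0% and 78.9%), and near the right end of the main block lies a well covered stretch, after which coverage is low.

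The main block carried most of the chromosome 7 signal, with peaks over a little less than 50% of its length in both conditions. In asynchronous cells 1820 peaks covered 1.58 Mb, or 46.0% of the block, and in mitotic cells 1690 peaks covered 1.54 Mb, or 44.7%. The mitotic to asynchronous ratio was 0.929 for peaks (0.869 to 0.993) and 0.972 for covered length. Median peak width was 644 bp for asynchronous and 693 bp for mitotic peaks, and neighbouring starts lay a median of 1424 and 1576 bp apart. The main block was thus made up of many short peaks in both conditions. All of these widths lay below the medians of the whole lists, 868 and 796 bp.

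Peaks of the main block were weak for their lists. The authors' fold enrichment, the ratio of pileup to local background for a peak, had a median of 6.05 in the asynchronous list, with quartiles of 4.96 and 7.40 and a highest value of 13.6. In the mitotic list the median was 6.93, with quartiles of 5.82 and 8.20 and a highest value of 13.7. Only 27.0% of all asynchronous peaks and 34.8% of all mitotic peaks had a fold enrichment below these medians. Folds of the 2 lists come from separate peak calls, so they are not like measures. Where folds of the 2 lists are set side by side, this limit applies.

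One limit was then set for both lists: a peak passed with a fold enrichment of 6 or more together with a −log10 q of 5 or more. In the asynchronous list 934 of 1820 main-block peaks passed it (51.3%, 49.0 to 53.6%), against 73.7% of all listed asynchronous peaks. In the mitotic list 1200 of 1690 passed (71.0%, 68.8 to 73.2%), against 77.6% of all listed mitotic peaks. The share in the main block was below the share of its list in both conditions, by more in the asynchronous one. The order of the conditions turned with this limit: over all peaks from 60300000 on, the mitotic to asynchronous ratio became 1.28 for peaks and 1.27 for covered length. The whole lists held more mitotic peaks both without the limit (32035 asynchronous and 33553 mitotic) and past it (23612 and 26032). The depth and the control behind each call are not known here, and their part in the turned ratio was not tested.

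The second block had the highest fold enrichment of the 4, although it is much shorter than the main block. It held 142 asynchronous peaks covering 159 kb (40.4% of the block) and 129 mitotic peaks covering 167 kb (42.5%). Median fold enrichment was 7.54 (asynchronous) and 9.31 (mitotic), and 47.4% and 67.8% of all peaks of the respective list lay below it. The upper quartile reached 10.1 and 12.1 and the highest peak 14.4 and 16.9. Past the limit were 94 of 142 peaks of the asynchronous list (66.2%, 57.8 to 73.9%) and 97 of 129 of the mitotic list (75.2%, 66.8 to 82.4%), and both intervals hold the share of all peaks of the list, 73.7% and 77.6%. Its median lay above those of the other blocks in each list, above the median of all peaks in the mitotic list (7.98), and below that of all peaks in the asynchronous list (7.73).

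The signal of the second block was concentrated toward the main block. In the 50 kb from 59500000 peaks covered 11.5% (asynchronous) and 10.96% (mitotic). In the 50 kb from 59650000 they covered 43.0% and 51.5%, and in the 50 kb from 59700000 they covered 85.9% in both lists, with a median fold enrichment of 12.5 and 14.3. From 59750000 the values were 77.2% and 80.3%, and from 59800000, in the window where the block ends, 50.6% and 46.1%. Coverage thus climbed up to the window from 59700000 and fell in those from 59750000 and 59800000, in both lists. The strongest peaks lay in this stretch. The highest asynchronous fold on this side of the chromosome, 14.4, belonged to a peak from 59743627 to 59745148, which the mitotic list held from 59743626 to 59745098 at 16.8. A peak from 59751626 to 59753594 at 13.9 in the asynchronous list was listed from 59751627 to 59753547 at 16.8 in the mitotic list. The highest mitotic fold, 16.9, was that of a peak of 623 bp from 59710325 to 59710947, which met 1 asynchronous peak.

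The first and the third block held few, mostly weak peaks. In the first block 37 asynchronous peaks covered 45.3 kb (29.7% of the block) and 22 mitotic peaks covered 49.0 kb (32.2%), a ratio of 0.595 for peaks (0.334 to 1.03) and 1.08 for covered length. Past the limit of fold and q were 10 of 37 asynchronous (27.0%) and 12 of 22 mitotic peaks (54.55%). Over all peaks of the lists these shares were 73.7% and 77.6%. With these few peaks the peak ratio turned to 1.20, and the length ratio became 1.80. Median fold enrichment was 5.09 and 6.02, above only 15.1% of asynchronous and 22.7% of mitotic peaks. A single peak weighs heavily in these lengths: the widest mitotic peak of the whole short-arm side lay here, 18471 bp from 58245953 to 58264423, out of the 49005 bp covered. The asynchronous list had 1 peak of 8422 bp at the same place, from 58246752 to 58255173, also the widest of its side.

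The third block had the highest ratio of covered length between the lists among the 4 blocks. Its 26 asynchronous peaks covered 21.2 kb (10.7% of the block) and its 30 mitotic peaks 42.9 kb (21.6%), a ratio of 2.02 for length and 1.15 for peaks (0.660 to 2.03). The added length came with wider peaks: the median width was 588 bp for asynchronous and 1271 bp for mitotic peaks, and of 6 peaks that paired one to one between the lists all 6 were wider in mitotic cells. Over the whole lists 6643 of 14734 such pairs were wider in mitotic and 7980 in asynchronous cells. The 50 kb window with the largest difference, from 60150000, held 4 asynchronous and 11 mitotic peaks, covering 4.40% and 31.8%. The windows from 60050000 and 60100000 held more asynchronous peaks, 11 against 9 and 10 against 7. There the asynchronous coverage was 20.6% and 13.1%, and the mitotic coverage 30.6% and 21.5%. At the edges, the window from 60000000 held 1 asynchronous and 0 mitotic peaks, and that from 60200000 held 0 and 3. Median fold enrichment was 5.17 and 6.36, below most peaks of either list. With the limit 7 asynchronous (26.9%) and 19 mitotic peaks (63.3%) were left, against 73.7% and 77.6% of all peaks, and the ratio became 2.71 for peaks and 3.39 for length. A block of this size in 1 list per condition gives no measure of how far 2 cultures of the same kind would differ.

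**Figure D2:**
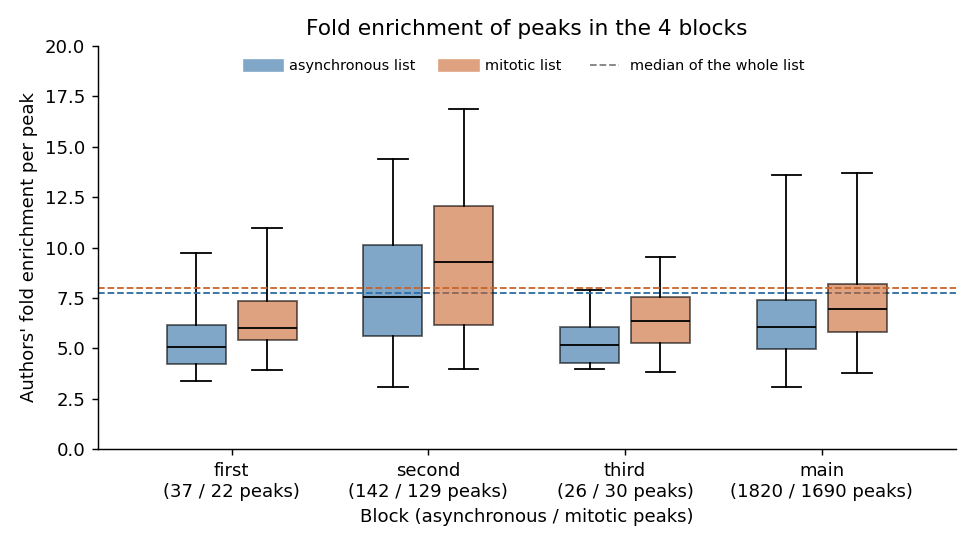
Authors' fold enrichment per peak (vertical axis) in the 4 blocks (horizontal axis, with peak numbers in the asynchronous and mitotic list); boxes show quartiles and median, whiskers the lowest and highest peak, dashed lines the median of each whole list. The second block has the highest median in both lists, 7.54 and 9.31. In the asynchronous list the medians of all 4 blocks lie below the dashed line, and in the mitotic list those of all but the second.

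How far both lists marked the same places differed between the blocks. Of the asynchronous peaks in the main block 1283 of 1820 (70.5%, 68.3 to 72.6%) overlapped a mitotic peak by at least 1 bp, against 81.9% of all asynchronous peaks. Of the mitotic peaks 1265 of 1690 (74.9%, 72.7 to 76.9%) overlapped an asynchronous one, against 79.2% of all mitotic peaks. Shared base pairs made up 65.2% of the asynchronous and 67.1% of the mitotic length, a Jaccard index (shared over combined base pairs) of 49.4%. The second block had 110 of 142 asynchronous peaks met (77.5%, 69.7 to 84.1%), 95 of 129 mitotic ones (73.6%, 65.2 to 81.0%) and a Jaccard index of 60.6%. These shares of peaks met lay below those of the whole lists, though the intervals of the second block reach them. The first block had 11 of 37 asynchronous (29.7%, 15.9 to 47.0%) and 9 of 22 mitotic peaks met (40.9%, 20.7 to 63.6%). In the third block these were 10 of 26 (38.5%, 20.2 to 59.4%) and 9 of 30 (30.0%, 14.7 to 49.4%). Their Jaccard indices were 23.1% and 17.9%. Overlap rises with coverage by itself, and these 2 blocks were also the least covered. The largest region of chromosome 10, found by the same joining rule, had 33.4% (asynchronous) and 31.9% (mitotic) coverage. The first block had 29.7% and 32.2%, and the third block was less covered. In that region of chromosome 10, 77.8% of asynchronous and 78.3% of mitotic peaks were met. The part of coverage in the low overlap of the first and the third block was not tested.

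Peaks found in a single list were weaker and shorter. In the main block the median asynchronous fold was 6.55 for peaks that met a mitotic peak and 5.13 for the 537 that met none, with median widths of 767 and 448 bp. In the mitotic list the values were 7.27 and 5.92, and 770 and 449 bp for the 425 that met none. In the second block the gap was wider, 9.19 against 5.68 in the asynchronous and 10.8 against 5.39 in the mitotic list. A wider peak has more chance to touch another, so width and overlap are not separate measures.

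Where 1 asynchronous peak met 1 mitotic peak and no other, edges often coincided. Of 73 such pairs in the second block 42 (57.5%) had starts within 50 bp of each other and 37 (50.7%) had ends within 50 bp. Of 909 pairs in the main block 364 (40.0%) had starts and 317 (34.9%) had ends that close, against 46.2% and 42.7% of 14734 pairs over the whole lists. In the first block 0 of 5 pairs had starts that close, and in the third block 1 of 6. Fold enrichment of the paired peaks went together across pairs, with Pearson's r of 0.77 (Spearman's rho 0.75) in the second block and 0.63 (0.63) in the main block, against 0.69 (0.68) over all pairs of the lists. These pairs share the reference sequence and the same merged libraries of each condition, so r is a description of the lists. In the main block 444 pairs were wider in the mitotic and 453 in the asynchronous list, and in the second block 43 and 30, beside the 6643 and 7980 of the whole lists.

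Coverage within the main block was uneven, and the unevenness recurred in both lists. Over 33 windows of 100 kb from 60500000 to 63800000 it ran from 21.3% to 66.0% in the asynchronous list (median 49.1%) and from 24.0% to 78.8% in the mitotic list (median 45.2%). The coverage of the lists had a Pearson's r of 0.86 and a Spearman's rho of 0.88 over these windows, which share sequence and read placement. The window from 62100000 had 36.9% and 28.6%, that from 62400000 38.3% and 28.6%, and that from 62500000 36.8% and 31.5%, while the window from 62200000 between them had 45.1% and 46.6%. Those from 62100000, 62400000 and 62500000 were the least covered mitotic windows apart from the last, from 63700000. In the asynchronous list the window from 61800000, with 32.5%, lay lower still, while the mitotic list had 39.1% there.

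A stretch near the long-arm end of the main block was more covered. In the windows from 63400000, 63500000 and 63600000 asynchronous coverage was 56.7%, 61.4% and 66.0% and mitotic coverage 65.6%, 78.8% and 72.9%. Median fold enrichment reached 8.44 (asynchronous) and 8.32 (mitotic) in the last of these, the highest of the 33 windows in each list. The widest mitotic peak of the main block, 10697 bp from 63535077 to 63545773 with a fold of 7.58, lay here and met 4 asynchronous peaks. The strongest peak of each list did too: the asynchronous one, with a fold of 13.6, from 63595677 to 63596148, and the mitotic one, with 13.7, from 63669027 to 63669544. Each met a single peak of the other list. Beyond this stretch coverage was low, with 21.3% and 24.0% in the window from 63700000 and 1.08% and 1.31% in that from 63800000.

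The balance between the lists was different at this end. In these 3 windows 137 asynchronous peaks covered 184 kb and 141 mitotic peaks 219 kb, a ratio of 1.19, and mitotic coverage was the higher in 3 of 3 windows. Without them the ratio of covered length in the main block was 0.943, and mitotic coverage was higher in 8 of 30 windows. The largest single difference toward mitotic cells was 17.3 percentage points in the window from 63500000, and the largest toward asynchronous cells was -10.9 points in that from 61500000. The choice of these windows was made with their values in view.

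Peaks in the main and the second block recurred at different distances, each close to a whole multiple of the monomer length. All distances up to 20 kb between peaks of a block were taken, and the period was sought, from 800 to 4000 bp, that they followed best when it was scored together with its first whole fractions, 6 terms in all. In the main block peak starts gave 1022 bp (asynchronous) and 1024 bp (mitotic), and peak ends 1022 bp in both; this is 6.01 to 6.02 times 170 bp. In the second block peak ends gave 2732 and 2738 bp, or 16.1 times 170 bp in both lists, and asynchronous starts 2720 bp. With distances up to 10 kb alone the ends gave 1364 and 1358 bp, near 0.5 of that length. Mitotic starts there gave 1364 bp as well. The second block thus had the longer period under each of these settings.

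The distances themselves show the same. In the main block the asynchronous list had 149 pairs of starts 1000 to 1100 bp apart, 150 pairs 2000 to 2100 bp apart and 158 pairs 3000 to 3100 bp apart, against a median of 94 per 100 bp. Between these, at 1500 to 1600 and 2500 to 2600 bp, it had 86 and 89. The mitotic list had 134, 136 and 130 pairs at the first 3 distances, against a median of 85. In the second block, with far fewer peaks, 17 asynchronous and 20 mitotic pairs of ends lay 2700 to 2800 bp apart and 18 and 22 pairs 5400 to 5500 bp apart, against medians of 6 and 5. Pairs of starts there were fewer at these distances, 12 and 15 at the first and 10 and 18 at the second, against medians of 7 and 6. The tallest asynchronous column of starts, 14 pairs, lay at 4000 to 4100 bp. These distances were taken up after the positions had been seen.

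Each block was also set against the other block's period. Windows of 5% of a period on either side of its multiples hold 10% of evenly spread distances. In the main block 14.2% of 19593 asynchronous and 13.4% of 16903 mitotic distances between starts lay in such windows for the block's own asynchronous period, and 9.31% and 9.13% lay midway between multiples. For the period of starts in the second block, 2720 bp, the shares were 10.01% and 9.84%. In the second block 17.1% of 1283 asynchronous and 18.8% of 1200 mitotic distances between ends lay near multiples of its own period and 11.8% and 12.8% midway, while 9.59% and 10.5% lay near multiples of 1022 bp. Starts of the second block stood out less: 14.2% and 15.4% lay near multiples of 2720 bp and 11.3% and 11.5% midway. Near the other block's multiples the shares were thus close to those of an even spread. The own asynchronous period was found in the same distances, so its share is a description with no test. Both lists lie on 1 reference and share its repeats, so the mitotic shares are not independent support, and spacing of the recovered DNA cannot be told apart from spacing set by the sequence and by read placement.

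**Figure D3:**
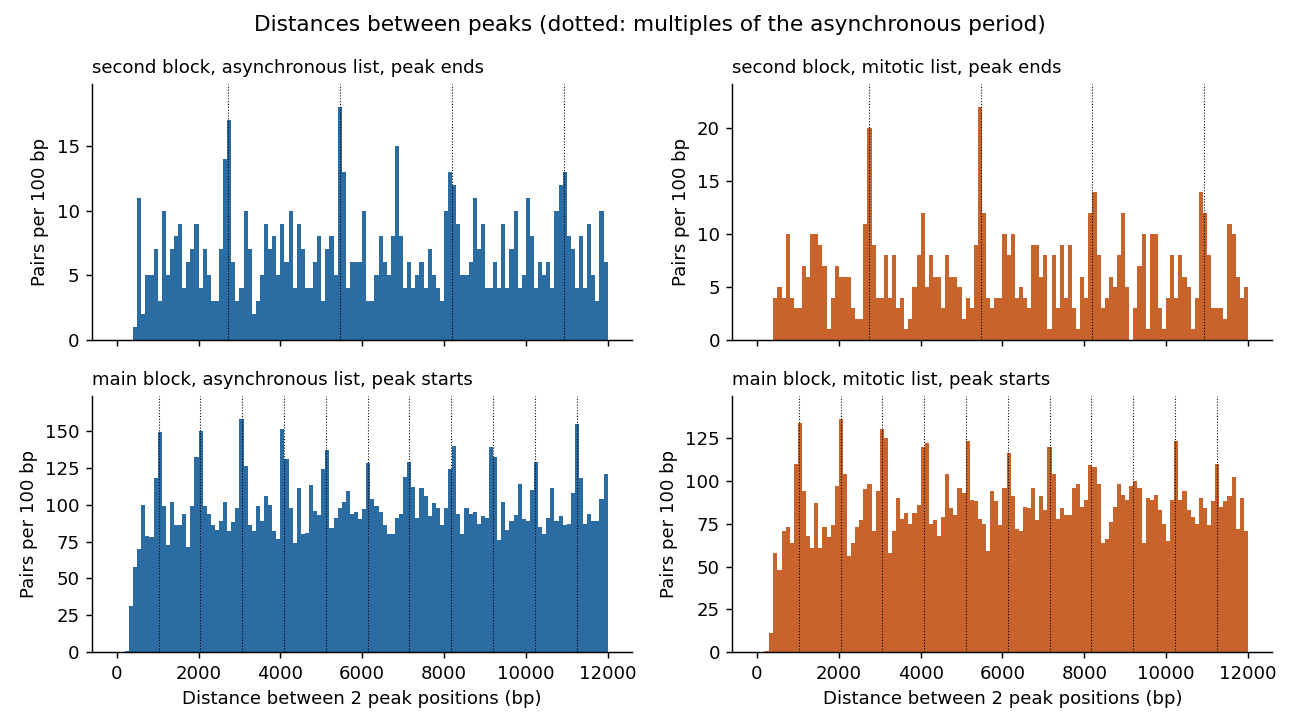
Number of pairs of peaks per 100 bp (vertical axis) by the distance between them (bp, horizontal axis), for peak ends in the second block (upper panels) and peak starts in the main block (lower panels), asynchronous list on the left and mitotic list on the right. Dotted lines stand at multiples of the asynchronous period, 2732 bp above and 1022 bp below, and the first 3 multiples in the main block and the first 2 in the second stand above the median column; other tall columns lie between lines in the second block.

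The period of the main block was met along most of its length. When the block was divided into 7 stretches of equal length, the share of distances between starts near multiples of 1022 bp ran from 11.1% to 17.5% (asynchronous) and from 11.5% to 15.3% (mitotic), above 10% in each stretch of both lists. It was highest in the third stretch, from 61393285 to 61884676, in both lists. It was lowest in the last, from 63358853 to 63850245, which holds the well covered stretch and where peaks were widest, with medians of 898 and 942 bp. Midway between multiples the shares in this last stretch were 10.7% (asynchronous) and 8.20% (mitotic), so the asynchronous 11.1% stood little above its midway share. The period was found in these same distances, so shares above 10% are a description with no test. The part of peak width in the low share was not tested. Periods were also scored one at a time. The 3 leading ones of asynchronous starts in the main block were 512, 340 and 1026 bp, and of mitotic starts 1026, 512 and 340 bp, the same 3 in another order. For ends in the second block they were 1372, 682 and 456 bp (asynchronous) and 684, 388 and 550 bp (mitotic), so the lists had 1 of 3 in common there, at 682 and 684 bp.

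The lists also show where calls were left out. Peak names carry running numbers in genome order, and numbers missing from a list were counted as calls left out of it. In the main block 1820 of 3397 asynchronous numbers (53.6%) and 1690 of 3287 mitotic numbers (51.4%) were listed, against 42.4% and 22.4% of all numbers. Among the largest regions of the 23 chromosomes these shares ranked 5 and 4 from the lowest, with medians of 70.4% and 68.9%. The second block had 142 of 317 (44.8%) and 129 of 245 (52.7%). The first had 37 of 122 (30.3%) and 22 of 87 (25.3%), and the third block 26 of 104 and 30 of 125 (24.0%). In the asynchronous list the first and the third block thus had lower listed shares than all numbers (42.4%). In the mitotic list their shares lay slightly above that of all numbers (22.4%). Calls left out were counted between the first and last listed peak of a block in each list. In the first and the third block these were 85 and 78 asynchronous and 65 and 95 mitotic calls. The main block also had calls left out, 1577 asynchronous and 1597 mitotic. More calls are missing from the last listed peak of a block to the first of the next in the same list. From the third to the main block these were 62 asynchronous and 34 mitotic calls. From the second to the third they were 3 and 12, and from the first to the second 19 and 46. Such stretches can reach into a block, since block edges come from both lists. The last asynchronous peak of the third block ended at 60176594 and the block at 60242547. How many of these calls fell in the gaps themselves cannot be told.

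Set beside the largest region of each of the 23 chromosomes with peaks, found by the same joining rule, the main block of chromosome 7 was among the weak and patchy ones. Its median asynchronous fold of 6.05 was the lowest of the 23, next to 6.32 on chromosome 16, with a median over regions of 8.44. In the mitotic list its 6.93 ranked 3 from the lowest, between 6.78 on chromosome 19 and 7.10 on chromosome 1. Its covered share ranked 6 (asynchronous) and 5 (mitotic) from the lowest, where the median regions had 70.7% and 72.9%. Its Jaccard index was second to the lowest, between 37.9% on chromosome 16 and 50.4% on chromosome 17, and its share of asynchronous peaks met likewise lay between 67.4% on chromosome 16 and 72.5% on chromosome 19.

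The share of peaks past the limit differed more on chromosome 7 than in any other of the 23 regions, by 19.7 percentage points between mitotic and asynchronous lists. Chromosome 6 followed with 15.2 points, the median region had 5.71, and the lowest was -6.08 points on chromosome 5. The ratio of peaks past the limit was also the highest of the 23, at 1.28, next to 1.27 on chromosome 16, with a median of 1.09. The median fold itself differed by 0.878 between the lists, which ranked 9 from the highest. The limit of 6 lies close to the asynchronous median of the main block, 6.05. The lists also begin at different folds: the lowest in the main block was 3.08 (asynchronous) and 3.77 (mitotic). Its lower quartiles were 4.96 and 5.82. A fixed fold limit, or a difference of medians, can thus not be taken as a like measure in both lists. With 1 list per condition the ranks have no error and no test could be made of any difference between chromosomes.

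**Figure D4:**
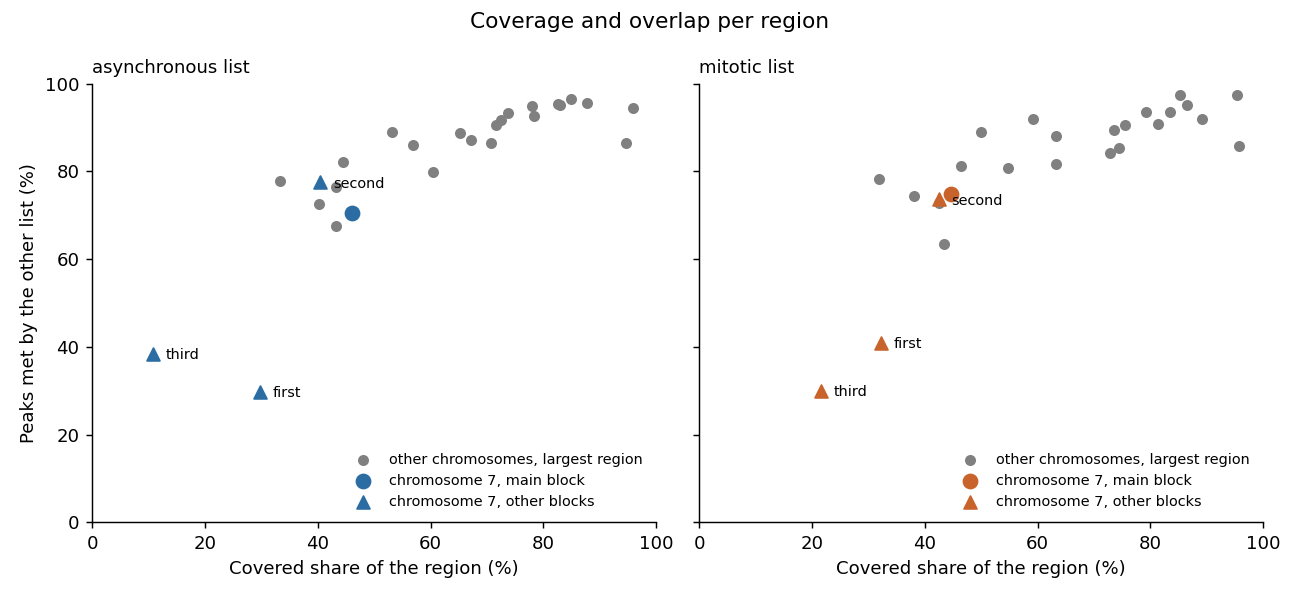
Share of peaks that meet a peak of the other list (%, vertical axis) against the covered share of the region (%, horizontal axis), for the largest region of each chromosome and the 4 blocks of chromosome 7, in the asynchronous list (left) and the mitotic list (right). The main block, at 46.0% and 44.7% coverage, lies among the sparsely covered regions, and its first block and the third lie below all 23 largest regions in both lists.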

How the data were processed

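Groups were taken from the sample titles. Per the submitters' processing notes, fastp, Bowtie2 and MACS2 were used with build hs1; the sources used here give no version, setting, control library or rule for reads that fit many repeat copies. The authors deposited 1 headerless peak list per condition, which per the labels joins Odd and Even, and column meanings were read from the order and values of a MACS2 broad peak table. The deposited pileup signal, in an unstated scaling, was not used. The deposited fold enrichment, a ratio, and the deposited −log10 q ranked and filtered peaks. The 3 unnamed score columns of the deposited lists served no result. Positions are 1-based. No library depth is known, so precision is that of peak counts: Clopper-Pearson intervals for shares, conditional binomial intervals for ratios.

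The range, the blocks and all descriptions were chosen with earlier results of these data known. Single peaks were named by a rule: the 3 widest, the 3 strongest and the outermost of each side and list. No gene was named and no sequence printed, because no sequence or annotation of build hs1 was used here. The overlap, coverage and period scripts were tested on simulated data; the period script can return a whole fraction of the true period. Scripts ran on Python 3.11.15 with scipy 1.17.1, numpy 2.4.6 and pandas 2.3.3, and figures were drawn with matplotlib 3.10.9.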

Additional observations from a re-analysis of the deposited data

How the results depend on the processing

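Peaks starting below 60300000 (all blocks but the main one) had 205 asynchronous and 181 mitotic peaks, with a mitotic to asynchronous ratio of 0.883 for peaks and 1.15 for covered length, 63.9% of asynchronous peaks met and a Jaccard index of 45.1%. Peaks from 60300000 on had 0.930, 0.972, 70.5% and 49.4%. With the common limit of fold and q the lower side gave 1.15, 1.35, 79.3% and 49.6% and the upper side 1.28, 1.27 and 79.8%. With the strongest 50% of each list they gave 1.09, 1.27, 85.7% and 59.9%, and 1.34, 1.37, 61.7% and 33.6%. Both peak ratios and the upper length ratio thus turned direction under both limits, while the lower length ratio stayed above 1; the peak ratio also turned in the first block with the common limit, to 1.20, and in the second with either, to 1.03 and 1.101. A reciprocal overlap of 50% left 39.0% and 46.1% met. Keeping peaks of at least 500 bp changed none of these directions. Median fold on the lower side was 6.50 (asynchronous) and 7.64 (mitotic), and became 8.79 and 9.64 weighted by width and 7.57 and 8.57 for peaks of at least 500 bp; on the upper side it became 6.60 and 7.40 under either setting. Median distance between neighbouring starts was 2026 and 2216 bp below and 1424 and 1588 bp above, and for peaks of at least 500 bp 2822, 2876, 2247 and 2402 bp. The period of the second block became 1364 bp from mitotic starts, and 1364 and 1358 bp from ends with distances up to 10 kb; that of the main block stayed within 1022 to 1028 bp. Joining over 20 or 50 kb left 4 blocks and over 200 kb 3, with the third block joined to the main one. Settings for single blocks and periods were chosen after seeing the data. Leaving out the Odd or the Even library was not possible with merged lists, and no paired analysis was possible because each condition has 1 merged list. Unknown depth limits every statement on weak peaks, and the cause of the turned directions was not tested.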
